A study of Homo sapiens with 4 samples.

Results

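Replication-dependent histone genes lie in a few dense clusters of the human genome, and 5 windows over these clusters are described here: 3 on chromosome 6 and 2 on chromosome 1. The members are the 535 non-overlapping 1 kb tiles of the windows, chosen by position alone, of 3093794 such tiles in all. Positions are in hg19. The windows are chr6:26015001-26290000 (275 tiles, the large chromosome 6 window), chr6:27095001-27120000 (25 tiles, the small chromosome 6 window), chr6:27770001-27870000 (100 tiles, the third chromosome 6 window), chr1:149780001-149865000 (85 tiles, the first chromosome 1 window) and chr1:228610001-228660000 (50 tiles, the second chromosome 1 window). Of the members, 482 held at least 1 read in some library, and 53 held none. The study used ChIP-seq, in which antibody-bound chromatin fragments are sequenced, on the human leukaemia cell line K562, with antibodies to the protein DPF2 and to histone H3 crotonylated at lysine 14 (H3K14cr). All 4 libraries came from wild-type K562 cells cultured in serum-containing medium, fixed with formaldehyde and sonicated. They form 2 groups: DPF2 replicates 1 and 2, made with the Abcam antibody 134942, and H3K14cr replicates 1 and 2, made with the PTM antibody 535. No library from unprecipitated DNA was analysed here, so antibody signal, DNA copy number, mappability and the ease of shearing cannot be told apart at any tile.

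As background, these genes encode the 4 core histones and the linker histone H1. They are switched on together in S phase, when new DNA must be packed, and their transcripts end in a stem-loop in place of a poly(A) tail. The genes are short and lack introns, so a promoter, a transcribed body and the next promoter can fall within a few kb. DPF2 is a subunit of the BAF chromatin remodelling complexes, and its tandem PHD fingers recognise H3 tails acylated at lysine 14, the crotonyl form included. H3K14cr is a histone mark known from active promoters and enhancers. The comparison of both antibodies asks whether the reader protein and the mark share the same sites in these clusters, and how far each falls off in the gaps between the sites.

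The RefSeq table of GRCh38.p14 lists 67 histone genes in 5 groups that follow the windows in chromosome order: 32, 5, 16, 11 and 3 genes, which make 6 H1, 16 H2A, 17 H2B, 14 H3 and 14 H4 genes. The group of the large chromosome 6 window runs from H1-1 to H4C8, that of the small window from H2BC11 to H2AC12 and that of the third from H2BC13 to H2BC17. The chromosome 1 groups run from H2BC18 to H2AC21 and from H3-4 to H2BC26. Because that table is in another build than the files, its positions were used only to order and name genes, no tile was assigned to a gene, and whether a tile is exonic, intronic or UTR is not analysed here. Promoter sequences (300 bases across the start, RefSeq, GRCh38.p14) were matched for 62 of the 67 genes. H2A and H2B genes often stand head to head and share a promoter region: 10 such pairs were found, with oppositely oriented promoter windows starting within 100 bases of each other, 3, 1, 4, 1 and 1 in the groups in order. The promoter of the H2B gene of 1 pair per group is shown, read 5′ to 3′ on the strand of that gene, because both antibodies are read out over such short intergenic stretches. Capitals mark 3 motifs searched on both strands: the TATA box (TATAAA), the CCAAT box (CCAAT) and the octamer (ATTTGCAT). Capitals that run together are overlapping matches.
H2BC4, facing H2AC6: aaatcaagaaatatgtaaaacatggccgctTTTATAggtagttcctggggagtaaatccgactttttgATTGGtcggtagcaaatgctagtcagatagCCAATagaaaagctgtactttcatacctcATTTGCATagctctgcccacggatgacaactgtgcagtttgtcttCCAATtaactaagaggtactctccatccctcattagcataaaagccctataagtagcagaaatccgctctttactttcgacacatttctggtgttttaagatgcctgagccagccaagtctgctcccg
H2BC11, facing H2AC11: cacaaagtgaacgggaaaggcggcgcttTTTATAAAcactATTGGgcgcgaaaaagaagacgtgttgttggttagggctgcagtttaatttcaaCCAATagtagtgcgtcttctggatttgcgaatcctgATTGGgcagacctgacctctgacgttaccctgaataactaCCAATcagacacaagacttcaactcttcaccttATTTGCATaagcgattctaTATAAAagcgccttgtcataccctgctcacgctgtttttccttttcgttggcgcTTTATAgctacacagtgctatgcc
H2BC13, facing H2AC13: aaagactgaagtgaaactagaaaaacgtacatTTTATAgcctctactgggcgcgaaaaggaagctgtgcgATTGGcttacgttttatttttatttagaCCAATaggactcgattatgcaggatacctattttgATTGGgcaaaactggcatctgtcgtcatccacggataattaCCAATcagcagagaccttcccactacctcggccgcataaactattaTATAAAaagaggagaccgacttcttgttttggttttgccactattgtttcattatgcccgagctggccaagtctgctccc
H2BC21, facing H2AC20: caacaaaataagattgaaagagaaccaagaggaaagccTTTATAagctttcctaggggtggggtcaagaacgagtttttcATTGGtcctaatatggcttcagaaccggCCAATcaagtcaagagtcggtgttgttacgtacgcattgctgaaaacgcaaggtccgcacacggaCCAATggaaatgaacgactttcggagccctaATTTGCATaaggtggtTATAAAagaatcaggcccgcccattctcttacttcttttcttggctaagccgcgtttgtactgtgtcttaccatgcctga
H2BC26, facing H2AC25: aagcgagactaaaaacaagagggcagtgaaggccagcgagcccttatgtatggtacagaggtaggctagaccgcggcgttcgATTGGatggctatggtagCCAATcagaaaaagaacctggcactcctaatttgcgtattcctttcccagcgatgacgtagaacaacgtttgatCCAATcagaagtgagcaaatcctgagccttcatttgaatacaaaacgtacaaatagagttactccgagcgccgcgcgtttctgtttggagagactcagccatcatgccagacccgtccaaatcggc
In GRCh38.p14 these stretches are chr6:26123877-26124176, chr6:27132746-27133045, chr6:27807880-27808179 and chr1:149886633-149886932, all on the minus strand, and chr1:228457853-228458152 on the plus strand. None of these positions is an hg19 position.

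Motif matches in the histone promoters differed in share from those of all 27305 promoters of the same length. The CCAAT box, the site of the factor NF-Y, was in 53 of 62 histone promoters (85.5%) and in 35.7% of all promoters. It was in all 6 H1, 15 H2A, 17 H2B and 12 H3 promoters matched, but in 3 of 12 H4 promoters. The TATA box, which positions the transcription start, was in 40 of 62 (64.5%) against 12.0% of all. The octamer, known from H2B promoters as the site of POU2F1, was in 24 of 62 (38.7%) against 1.8% of all, with 13 of 17 H2B and 10 of 15 H2A promoters among them. Paired H2A and H2B promoters share much of their sequence, so they are not separate observations. H2AC7 and H3C4 are listed with one and the same promoter stretch. A match is a description of the letters and was not linked to signal.

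Depth and the checks of the libraries were these. The recovered totals ranged from 7787444 to 17369133 reads, and the members took 3154 to 7670 reads of a library, 0.0391% to 0.0442% of it. The megabase with the highest median was chr22:19000001-20000000, at 8.72 times the genome median. Chromosome 22 held 5 of the 10 highest megabases, and the amplified BCR-ABL1 region of K562 lies on that chromosome. Over the 482 covered members, chi-square per degree of freedom between libraries was 0.990 between the DPF2 libraries and 1.04 between the H3K14cr libraries, against 1.09 to 1.19 across antibodies. The libraries of an antibody thus differed by no more than sampling noise, so each antibody stands for 1 sample, its libraries are summed for ratios and no SD is given. The models fitted across tiles still take the 2 libraries as replicates, so their p-values measure only the spread between libraries of 1 antibody, which may be technical.

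DPF2 and H3K14cr signal was high in largely the same tiles of the clusters. Of 177 tiles above their window mean with DPF2 summed, 139 were also above it with H3K14cr summed. The same share was not counted over the genome. The sites described next were picked on both antibodies together, so they are shared by rule. A tile was called a site tile when its mean over the 4 libraries exceeded the mean of its window (in CPM, the reads of a tile scaled to a common library size), and touching site tiles made a site. This gave 165 site tiles in 61 sites: 31 sites in the large chromosome 6 window, 4 in the small, 15 in the third, 3 in the first chromosome 1 window and 8 in the second. The other 370 tiles made the gaps, and 317 of them held reads. Most sites were short: 22 covered 1 tile, 14 covered 2 tiles and 25 covered 3 or more, with a median of 2 kb and a widest site of 17 kb. The widest lies in the first chromosome 1 window. The mean of that window, which sets the cut, was 0.319 CPM, with 50 of 85 tiles without reads. Site tile chr1:149852001 there was at 0.395 CPM, and 36.1% of covered tiles of the genome were higher. Tiles just inside and just outside the rule lay close together, at 0.872 and 0.868 CPM in the large chromosome 6 window and at 0.825 and 0.774 CPM in the third. In the small window the nearest tiles were at 1.37 and 1.05 CPM, in the first chromosome 1 window at 0.395 and 0.298 CPM and in the second at 0.843 and 0.821 CPM. Set beside the gene groups, 31 sites stood against 32 genes, 4 against 5, 15 against 16, 3 against 11 and 8 against 3. These counts do not pair sites with genes: no tile was assigned to a gene. The number of sites also depends on the cut at the window mean and on the merging of touching tiles.

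The median site tile was at 1.41 and 1.20 CPM in DPF2 replicates 1 and 2 and at 1.29 and 1.44 CPM in H3K14cr replicates 1 and 2. The median covered gap tile was at 0.385 and 0.451 CPM for DPF2 and at 0.459 and 0.518 CPM for H3K14cr. Medians of all covered tiles of the genome were 0.257, 0.300, 0.276 and 0.288 CPM in the same order. In every library the covered gaps of the clusters thus had a higher median than the genome, and the sites had a higher one again. The 165 site tiles held 65.4%, 61.0%, 63.5% and 62.7% of the member reads. The rule that picked the sites used these same values, so they are a description and carry no test.

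**Figure D1:**
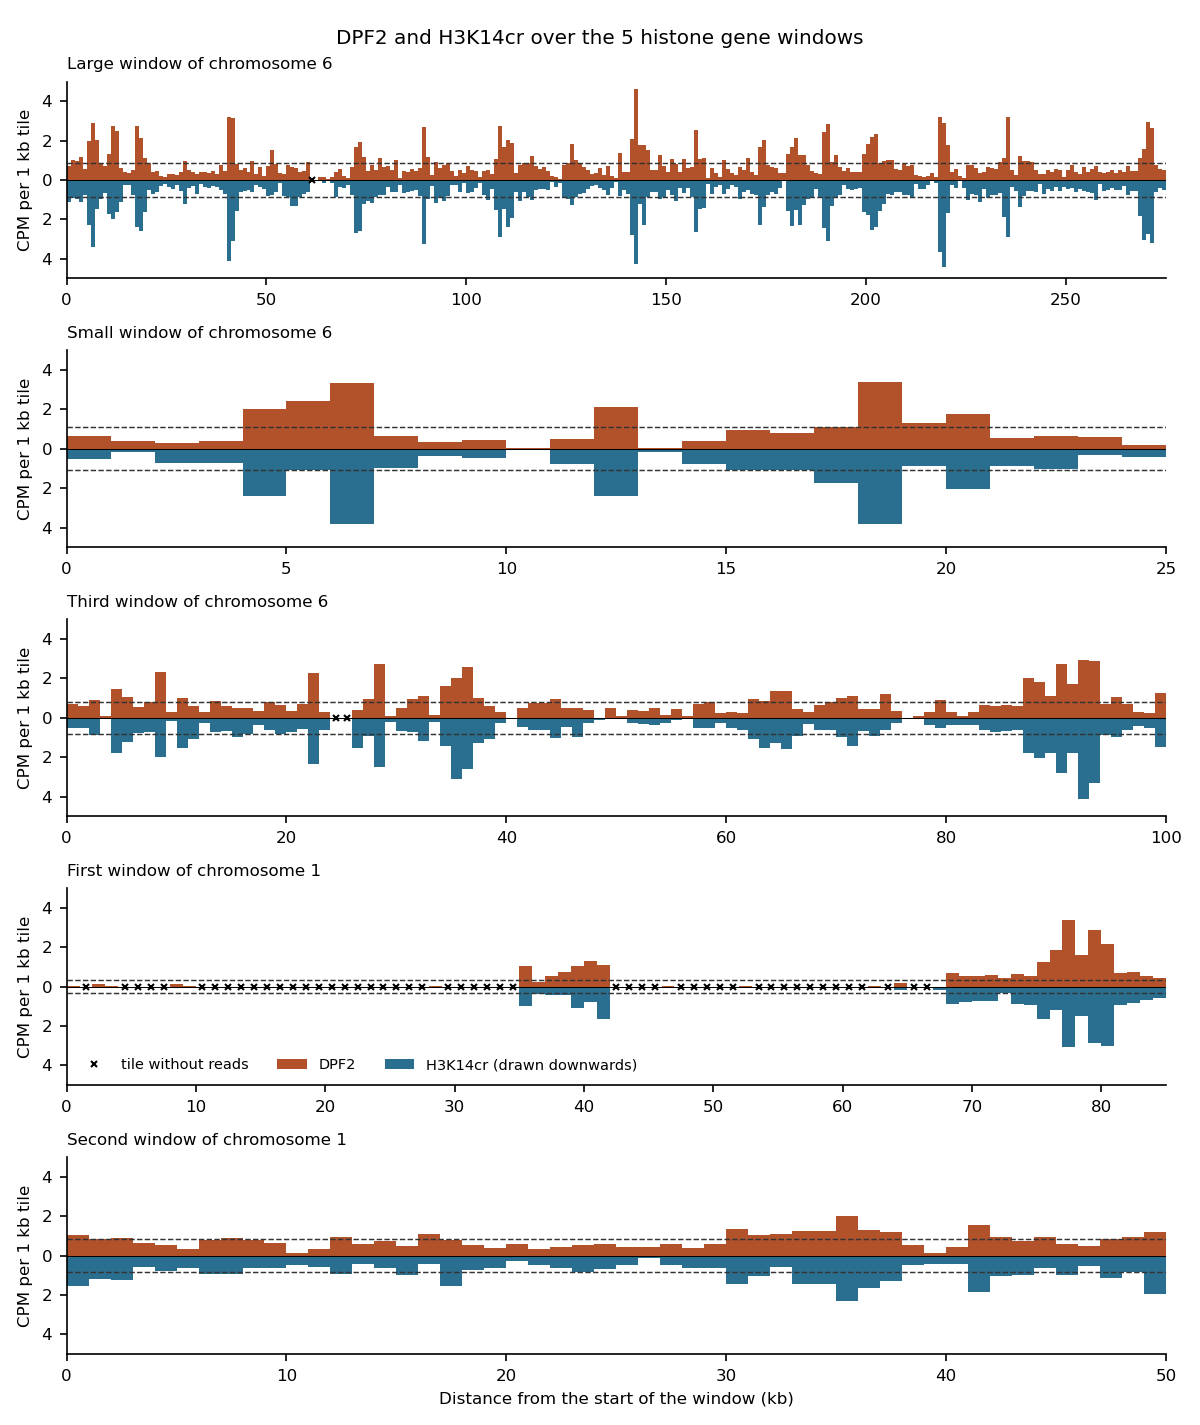
Scaled reads (CPM) in 1 kb tiles (y axis) against the distance from the window start in kb (x axis) for the 5 histone gene windows, with the 2 libraries of each antibody summed. DPF2 is drawn upwards, H3K14cr downwards, dashed lines are the window mean over the 4 libraries, and crosses are tiles without reads. The highest tile, at 142 kb of the large window, reached 4.60 CPM for DPF2 and 4.28 CPM for H3K14cr, and most peaks above the line have a counterpart below it.

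To measure the fall from site to gap on values that had not picked the sites, sites were chosen in the replicate 1 libraries of both antibodies and read in the replicate 2 libraries. The 167 site tiles so chosen had a mean of 1.40 CPM and the 368 gap tiles 0.428 CPM in DPF2 replicate 2, a ratio of 3.27 (95% counting interval 3.09 to 3.45). H3K14cr replicate 2 had 1.62 CPM at the same sites and 0.466 CPM in the gaps, a ratio of 3.47 (3.31 to 3.63). The DPF2 ratio was 0.941 times the H3K14cr ratio, with an interval of 0.876 to 1.01 that holds 1, so no difference between antibodies in how sharply they fall off was detectable in this reading. With sites chosen from H3K14cr replicate 1 alone the quotient was 0.923 (0.858 to 0.993), and from DPF2 replicate 1 alone 1.01 (0.943 to 1.09). Sites chosen in replicate 2 and read in replicate 1 gave 3.85 (3.58 to 4.14) for DPF2, 3.67 (3.46 to 3.90) for H3K14cr and 1.05 (0.955 to 1.15) for their quotient. The quotient lay on the other side of 1 in the swapped reading, and its interval again held 1. With only the gap tiles that held reads, the contrasts were 2.80 for DPF2 and 2.97 for H3K14cr. All intervals cover counting error only, since no molecular identifiers are recorded that would tell PCR copies apart.

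The windows differed in level and in contrast. In the large chromosome 6 window, site tiles averaged 1.77 and 1.63 CPM for DPF2 and 1.85 and 1.86 CPM for H3K14cr, while gap tiles averaged 0.465 and 0.497 CPM for DPF2 and 0.519 and 0.540 CPM for H3K14cr. In replicate 2 its site-to-gap ratio was 3.03 with DPF2 (interval 2.82 to 3.26), and H3K14cr had 3.17 (2.99 to 3.37). The small chromosome 6 window had the highest site means of the 5 windows, 2.40 and 2.26 CPM for DPF2 and 2.63 and 2.36 CPM for H3K14cr. Its ratio was 4.24 with DPF2 (3.39 to 5.32), and H3K14cr had 3.73 (3.10 to 4.49). The third chromosome 6 window had site means of 1.60 and 1.33 CPM for DPF2 and of 1.54 and 1.68 CPM for H3K14cr, with ratios of 3.003 (2.64 to 3.42) and 3.40 (3.06 to 3.78). The second chromosome 1 window, which the 3-gene group around H2AC25 and H2BC26 follows in order, had the lowest ratios: 1.67 (1.40 to 2.01) for DPF2 and 2.02 (1.75 to 2.34) for H3K14cr. In this reading the interval of each antibody lay below that of the same antibody in all 3 chromosome 6 windows. These intervals take reads as independent and leave out the spread between tiles, so a difference between windows was not tested. In the swapped reading the H3K14cr intervals of this window (1.98 to 2.88) and of the small chromosome 6 window (2.81 to 4.52) overlapped. Within each of the 5 windows, the interval of the quotient of the 2 antibodies held 1 in both readings.

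The first chromosome 1 window stood apart because 50 of its 85 tiles held no read in any library. Its longest gap, chr1:149780001-149815000, ran for 35 kb with 29 tiles at 0 reads. A count of 0 over all libraries together allows up to 3 reads in a tile. Sites took up 3 blocks: chr1:149815001-149816000, chr1:149817001-149822000 and the 17 kb of chr1:149848001-149865000. Its ratios of 67.4 for DPF2 (38.1 to 132) and 142 for H3K14cr (71.6 to 331) rest on 12 and 8 gap reads and on tiles without reads, and they are not comparable with the other windows. Left out, the contrast of the remaining 4 windows was 2.88 for DPF2 and 3.08 for H3K14cr. As background, this gene group holds near-identical copies, and in the RefSeq table the promoters of H4C14 and H4C15 were 100% identical over 300 bases. How reads that fit several copies were placed is not given in the sources used here, so values there are uncertain. In the group of the third chromosome 6 window the promoters of H4C11 and H4C12 were 98.3% identical over 300 bases. Reads that fit such copies are uncertain there too. The part of copies in the empty tiles was not tested.

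**Figure D2:**
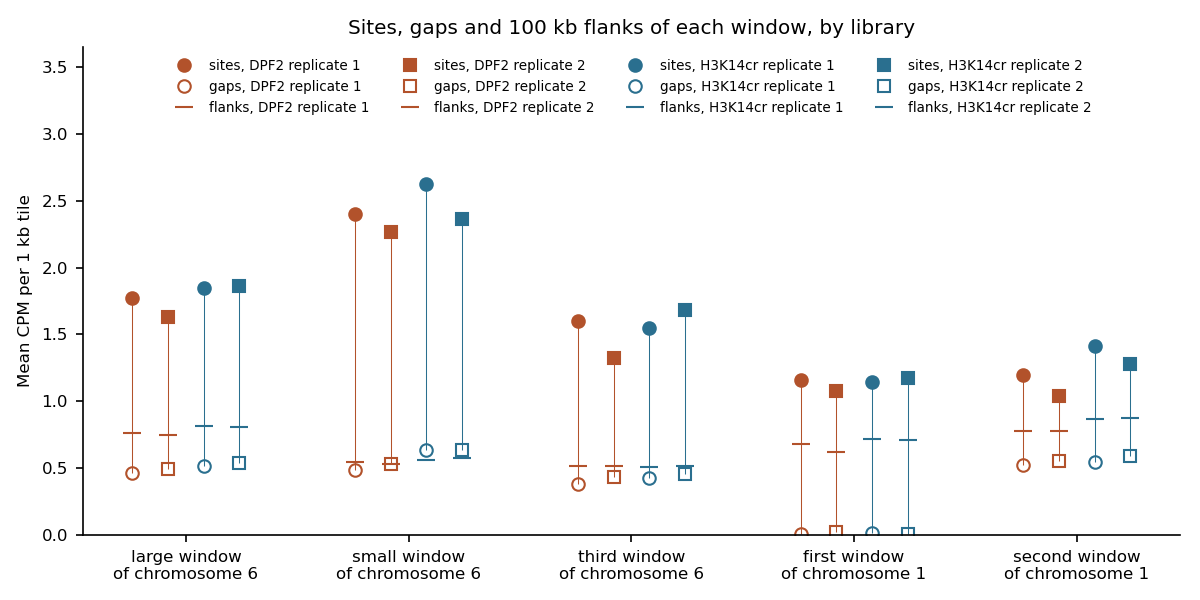
Mean CPM per 1 kb tile (y axis) of site tiles (filled), gap tiles (open) and the covered tiles within 100 kb on each side (dashes) for the 5 windows (x axis) in each library. Site means ran from 1.04 to 2.63 CPM, and in every window and library the site mean lay above the gap and the flank mean. Sites were picked on the mean of these same libraries, so this order is a description.

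Gaps were set against the covered tiles within 100 kb on both sides of each window. Gap tiles exclude every tile above the window mean, while the flanks keep their peaks, so lower gap means follow largely from the rule. The gap means also include tiles without reads, which the flank means leave out. The values are therefore a description. In the large chromosome 6 window the gap means named above lay below the flank means, 0.763 and 0.745 CPM for DPF2 and 0.818 and 0.808 CPM for H3K14cr. In the second chromosome 1 window the gap means were 0.522 and 0.553 CPM for DPF2 and 0.548 and 0.589 CPM for H3K14cr, below flanks at 0.775, 0.780, 0.867 and 0.875 CPM. In the small chromosome 6 window the gaps (0.485, 0.534, 0.633 and 0.633 CPM in the same order) and the flanks (0.547, 0.531, 0.563 and 0.579 CPM) lay close together, with DPF2 replicate 2 and both H3K14cr libraries slightly higher in the gaps. In the third window the gaps (0.379, 0.431, 0.424 and 0.457 CPM) were below the flanks (0.514, 0.520, 0.510 and 0.518 CPM). By the median of covered tiles, H3K14cr replicate 2 was higher in the gaps of that window, at 0.489 CPM against 0.403 CPM in the flanks. The medians of its other libraries were lower in the gaps. The longest covered gaps are given as means over their whole length: 28 kb at chr6:26255001-26283000 averaged 0.509, 0.499, 0.502 and 0.539 CPM. Another, 17 kb at chr6:27815001-27832000, averaged 0.332, 0.376, 0.346 and 0.329 CPM. At both, the 4 libraries differed little.

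Gap tiles were alike for both antibodies in relative terms. Summed over the libraries of an antibody, the DPF2 to H3K14cr ratio of CPM was 0.899 at the sites (0.867 to 0.931) and 0.913 in the gaps (0.872 to 0.956). The intervals of sites and gaps overlap, and both lay below 1. That side depends on the scaling: with median-of-ratios factors in place of library totals the ratios were 1.00 at sites and 1.02 in gaps. The same change moved the median log2 difference over all 255612 tested tiles from -0.11 to 0.00.

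Site tiles chosen separately for each antibody were largely shared. Above their window mean were 177 tiles with DPF2 summed and 170 with H3K14cr summed, and 139 were in both (78.5% of the DPF2 tiles and 81.8% of the H3K14cr tiles). Between DPF2 replicates 1 and 2, 135 tiles were shared (77.6% and 72.6%), and between the H3K14cr replicates 148 (78.3% and 85.5%). Single libraries of different antibodies shared 70.9% to 82.1% of their tiles, which overlaps the shares of single libraries of 1 antibody. Among the 10 highest tiles of each antibody 6 were shared, among the 20 highest 15, and among the 50 highest 41. Over the 482 covered members, Spearman's rho was 0.739 for the 2 DPF2 libraries, 0.801 for the 2 H3K14cr libraries and 0.698 to 0.803 across antibodies. Over all 2598309 covered tiles of the genome it was 0.682, 0.765 and 0.658 to 0.751. Most of this likeness is thus not particular to the clusters, and shared site tiles were not counted over the genome. The tiles share libraries, depth and base composition, so the rho values describe likeness and carry no p.

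Around 22 leading sites, the highest 3, 4 or 8 of each window, the mean signal formed a narrow summit for both antibodies. The sites were ranked on the mean of all 4 libraries, so the libraries read also helped to pick them, and the heights are a description. With summits placed in the replicate 1 libraries, replicate 2 densities at the summit were 0.645 CPM per 200 bp for DPF2 and 0.767 for H3K14cr. They fell to 0.138 and 0.156 CPM beyond 2200 bp, so the summit stood 4.67 and 4.91 times above its flank. The width midway between summit and flank was 780 bp for DPF2 and 840 bp for H3K14cr. With the replicates swapped, the summit stood 4.77 and 5.33 times above the flank, and the widths were 796 and 648 bp. The order of the widths turned between the readings, and no difference in width held in both.

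**Figure D3:**
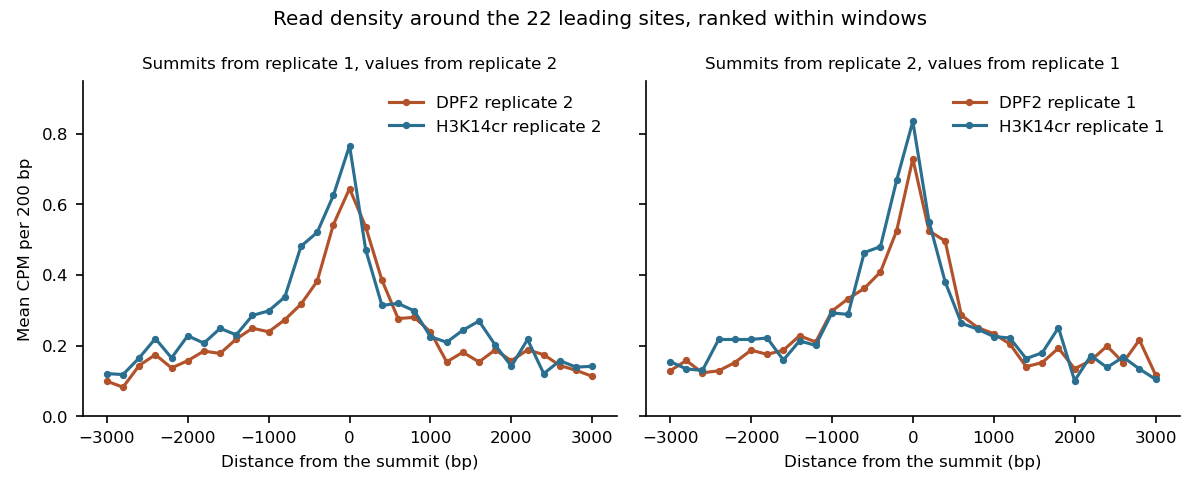
Mean CPM per 200 bp (y axis) against the distance from the summit in bp (x axis) for 22 leading sites, the highest 3, 4 or 8 of each window over all 4 libraries, DPF2 and H3K14cr as lines. Summit positions come from one replicate and values from the other; the summits reach 0.645 and 0.767 CPM on the left and 0.730 and 0.836 CPM on the right, and both lines fall to flanks of 0.138 to 0.157 CPM.

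Enrichment was then called per tile against its background, taken as the chromosome mean or the surrounding 20 kb, whichever was higher, at a Benjamini-Hochberg adjusted Poisson p of at most 0.001 and a fold of at least 3 in both libraries. For DPF2, 14 of 482 covered members (2.90%) were called, where 0.215% of the 2598309 covered tiles of the genome were. For H3K14cr, 16 members (3.32%) were called, against 0.416% of all covered tiles. The 2 lists shared 10 tiles, 71.4% of the DPF2 and 62.5% of the H3K14cr list. The overlap of the lists over the whole genome was not counted, so these shares are not read as a trait of the clusters. The 20 tiles called for either antibody lay in 15 of the 61 sites; all were site tiles, which the rules nearly fix, since both use the level of the same libraries. The large chromosome 6 window held 10 of the DPF2 and 13 of the H3K14cr calls, the small window 2 and 2, the third 1 and 1, the first chromosome 1 window 1 and 0, and the second none. Against the chromosome mean alone, 47 members were called for DPF2 (9.75%, with 1.11% of all covered tiles) and 65 for H3K14cr (13.5%, with 2.12%). Of these 42 were in both lists, an overlap also not counted over the genome, and 31 of the 61 sites held a tile called for either antibody.

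The highest member was chr6:26157001-26158000 in the large window. It held 5.01 and 4.36 CPM in the DPF2 libraries and 4.32 and 4.26 CPM in the H3K14cr libraries. Both antibodies were alike there, with a DPF2 to H3K14cr ratio of 1.07 (0.813 to 1.41), and 0.0575% of covered tiles of the genome had a higher mean. Another leading site of that window was chr6:26055001-26056000, with 3.47 and 3.004 CPM for DPF2 and 4.50 and 3.86 CPM for H3K14cr. Its local folds were 5.10 for DPF2 and 6.40 for H3K14cr, and its ratio was 0.773 (0.563 to 1.05). At chr6:26234001-26235000 the H3K14cr libraries, at 3.49 and 5.01 CPM, lay above both DPF2 libraries, at 2.95 and 2.85 CPM. The ratio there, 0.653 (0.473 to 0.894), was the only one below 1 by its interval among the 8 highest sites of the window, and limma gave an unadjusted p of 0.0261 that failed adjustment over all tiles. At chr6:26250001-26251000 DPF2 was at 2.95 and 3.30 CPM and H3K14cr at 2.67 and 3.05 CPM, and the groups overlapped. The other 4 of these sites, at chr6:26021001, chr6:26104001, chr6:26205001 and chr6:26285001, had ratios of 0.850, 0.829, 0.923 and 1.08, each with an interval that holds 1.

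In the small chromosome 6 window 2 sites led. At chr6:27101001-27102000 DPF2 was at 2.95 and 3.60 CPM and H3K14cr at 3.86 and 3.80 CPM, and chr6:27113001-27114000 had 3.21 and 3.53 CPM for DPF2 and 4.41 and 3.45 CPM for H3K14cr. Their ratios of 0.880 (0.643 to 1.20) and 0.892 (0.653 to 1.21) did not differ from 1 beyond counting error. In the third window chr6:27862001-27863000 was highest, with 3.08 and 2.85 CPM for DPF2 and 4.04 and 4.15 CPM for H3K14cr. The H3K14cr libraries lay above the DPF2 libraries there, with a ratio of 0.715 (0.517 to 0.982), an interval that held 1 with median-of-ratios factors (0.577 to 1.10). Its neighbours in rank, chr6:27792001, chr6:27798001 and chr6:27806001, had ratios of 0.959, 1.09 and 0.977, with intervals that hold 1.

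On chromosome 1 the tile chr1:149857001-149858000 led, with 3.60 and 3.30 CPM for DPF2 and 2.67 and 3.28 CPM for H3K14cr, a ratio of 1.12 (0.808 to 1.55). It was the one tile of its window called enriched against the local background, for DPF2 alone, at local folds of 3.83 for DPF2 and 2.92 for H3K14cr, close to the minimum of 3. The second chromosome 1 window was lower: its highest tile, chr1:228645001-228646000, held 2.18 and 1.88 CPM for DPF2 and 3.03 and 1.84 CPM for H3K14cr. There the libraries of the antibodies overlapped, and the ratio was 0.865 (0.572 to 1.29). At the edge of that window chr1:228659001-228660000 held 1.03 and 1.28 CPM for DPF2 and 2.39 and 1.67 CPM for H3K14cr, a ratio of 0.608 (0.363 to 0.993; 0.405 to 1.11 with median-of-ratios factors) with a limma unadjusted p of 0.0184.

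Tile by tile, most DPF2 to H3K14cr ratios at the sites could not be told from 1 at this depth. Among 123 site tiles with at least 50 reads in all, the DPF2 to H3K14cr ratio ran from 0.243 to 2.28 with a median of 0.869. For 105 of them the 95% interval held 1, for 15 it lay below and for 3 above, and 120 lay within 2-fold of 1. The medians of the lower and upper bounds were 0.563 and 1.37, so an interval that holds 1 does not show equal signal. The same counts were not made over all such tiles of the genome, so they are not read as a trait of the clusters. The split depends on the scaling: with median-of-ratios factors 109 intervals held 1, 3 lay below and 11 above, and the median ratio was 0.969. Over the 125 members with 50 reads or more, chi-square per degree of freedom was 1.24 to 1.47 between antibodies and 0.971 and 1.11 within them. Over all 142519 such tiles of the genome it was 1.32 to 1.53 between and 0.982 and 0.984 within. The values between antibodies thus lay above those within them, in the members and over the genome. Such values grow with the reads per tile and carry no interval here, so the size of the difference is not compared.

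**Figure D4:**
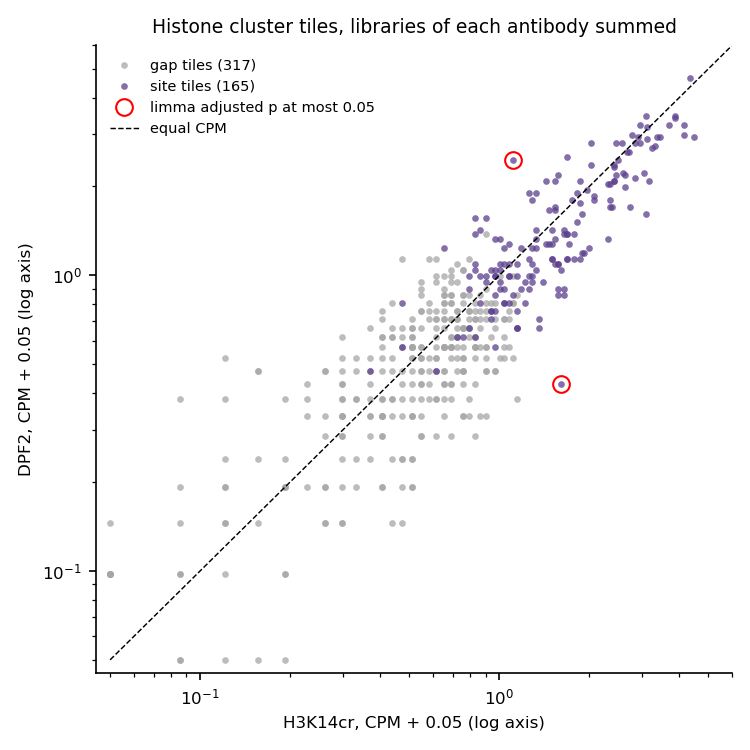
Summed CPM of DPF2 (y axis) against H3K14cr (x axis), both plus 0.05 on log axes, for the 482 histone cluster tiles with reads, site tiles in purple and gap tiles in grey. The cloud follows the line of equal CPM from the gaps to the sites; the 2 circled tiles, at ratios of 2.28 and 0.243, are those with a limma adjusted p of at most 0.05.

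The difference between antibodies was tested with limma on log2(CPM + 0.5) over the 255612 tiles that averaged 10 or more reads per library, 177 of them members. Those 177 passed a filter on level and are mostly site tiles (153). Of these, 1 was higher in DPF2, where 0.202% of all tested tiles were, and 1 was higher in H3K14cr, where 1.19% were. Each count is 0.565% of the tested members and too small to be read against that background. The median log2 difference was -0.14 over the tested members and -0.11 over all tested tiles. At an unadjusted limma p under 0.05 stood 5 of the 177 members higher in DPF2 and 18 higher in H3K14cr. Over all 255612 tested tiles these counts were 6386 and 25333. With median-of-ratios factors the members numbered 12 and 10, and all tested tiles 12992 and 13425. The lean to H3K14cr was thus also present over all tested tiles and depends on the scaling. It is not read as a trait of the clusters.

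The member called higher in DPF2 was chr6:27100001-27101000 in the small window. It held 3.08 and 2.03 CPM for DPF2 and 1.19 and 0.979 CPM for H3K14cr, so both DPF2 libraries lay above both H3K14cr libraries. The pooled ratio was 2.28 (1.42 to 3.70), and the log2 difference was 0.93 (SE 0.25, limma adjusted p = 0.032). Directly beside it lies chr6:27101001-27102000, the leading site of the window, whose ratio was 0.880. The call was lost without either H3K14cr library, without DPF2 replicate 1 (limma adjusted p = 0.285) and with a minimum of 5 reads (0.0806), and over 11 alternatives of limma and edgeR the adjusted p ran from 0.00321 to 0.597.

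The member called higher in H3K14cr was chr6:27796001-27797000 in the third window. DPF2 was at 0.385 and 0.375 CPM and H3K14cr at 1.47 and 1.61 CPM, and the groups did not overlap. The pooled ratio was 0.243 (0.099 to 0.523) from few DPF2 reads, and the log2 difference was -1.21 (SE 0.30, limma adjusted p = 0.0168). The 2 tiles before it, chr6:27794001-27796000, held no read in any library, and DPF2 was near its chromosome mean (0.926 times) while H3K14cr was at 3.77 times. How reads that fit several copies were placed near these empty tiles is not known, and the part of copies was not tested. The site tile chr6:27798001-27799000, which starts 2 kb further on, showed no such difference, at 2.44 and 2.93 CPM for DPF2 and 3.12 and 2.13 CPM for H3K14cr. The call was lost without either H3K14cr library and with median-of-ratios factors (limma adjusted p = 0.073), and adjusted p-values ran from 0.00627 to 0.813 over 10 alternatives of limma and edgeR.

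Among site tiles with at least 50 reads, the 3 highest and the 3 lowest ratios were named. Beside both called tiles these are 4 tiles of the large chromosome 6 window. DPF2 led at chr6:26066001-26067000, with 1.41 and 1.58 CPM against 0.919 and 0.691 CPM for H3K14cr, a ratio of 1.95 (1.10 to 3.52). It also led at chr6:26160001-26161000, with 2.05 and 1.20 CPM against 0.827 and 0.864 CPM, a ratio of 1.78 (1.02 to 3.17). The latter starts 3 kb after the highest member, within the same site. H3K14cr led at chr6:26057001-26058000, with 1.38 and 1.73 CPM against 0.642 and 0.901 CPM for DPF2, a ratio of 0.506 (0.271 to 0.901), and starts 2 kb after the leading site tile at chr6:26055001. At chr6:26072001-26073000 H3K14cr was at 1.65 and 1.09 CPM and DPF2 at 0.514 and 0.676 CPM, a ratio of 0.470 (0.229 to 0.905). At each of the 4 the libraries of the antibodies did not overlap, and none passed adjustment in limma. With median-of-ratios factors the intervals of both tiles led by H3K14cr held 1. With both called tiles, these 6 had a mean over the libraries of 0.961 to 1.82 CPM, below the leading sites of their windows. They were chosen for their ratio, so this is a description.

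**Figure D5:**
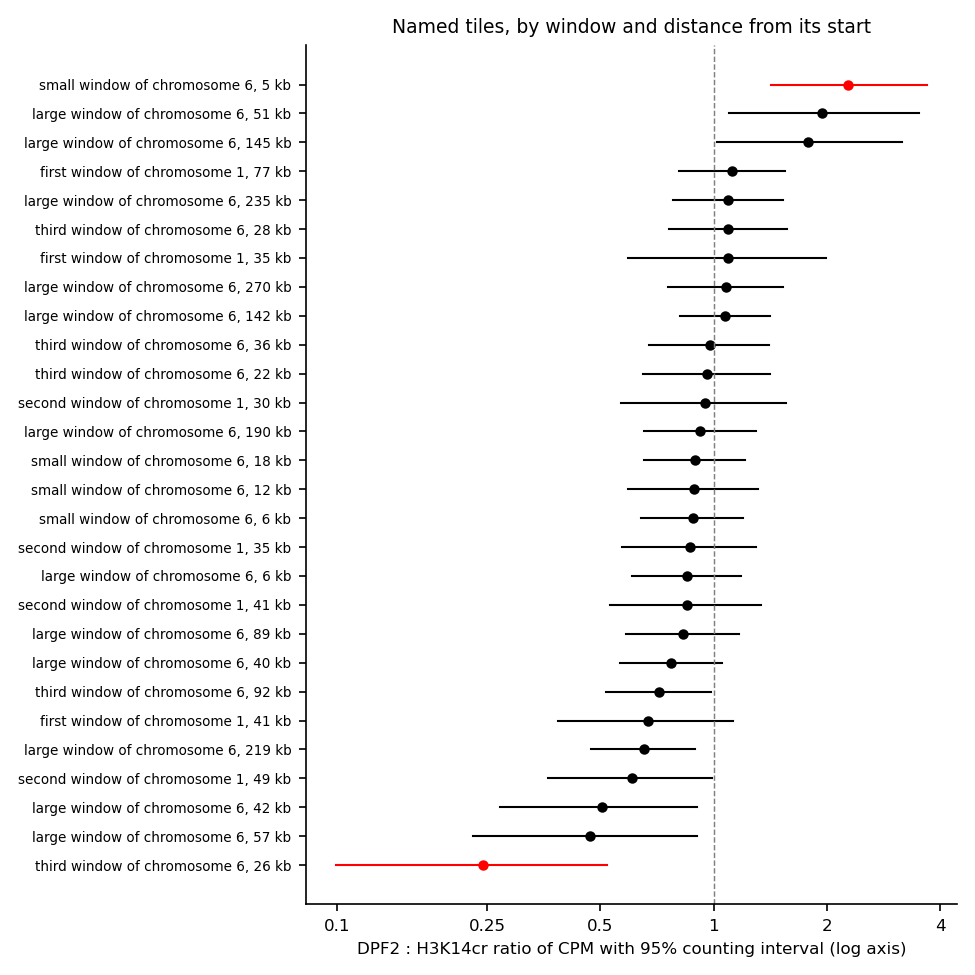
DPF2 to H3K14cr ratio of summed CPM with its 95% counting interval (x axis, log scale) for the 28 named tiles, labelled by window and distance from the window start (y axis). Red marks the 2 tiles with a limma adjusted p of at most 0.05, at 2.28 and 0.243; most other intervals cross the dashed line of equal CPM.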

How the data were processed

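ChIP-seq signal of 4 K562 libraries was used. Per the submitters' processing notes, Bowtie2 (version not given in the sources used here) and the builds mm9 and hg19 are named. Coordinates were read as hg19. The deposited signal files hold 100 bp bins with values that the authors had scaled to 10000000 reads per library, so all but 1, 3, 4 and 0 values per library came out as whole reads (tolerance 0.005; 100%, 100%, 99.9999% and 100% whole). The recovered reads numbered 7787444, 13317496, 10880366 and 17369133 (DPF2 1 and 2, H3K14cr 1 and 2). How duplicates and mapping quality were handled is not known. Bins were assigned to 1 kb tiles by midpoint, and CPM were computed from the recovered reads.

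The 5 windows, the lists and the tests were chosen with earlier results of these data known. Enrichment used one-sided Poisson tests. The difference between antibodies used limma (trend) on log2(CPM + 0.5), tiles averaging 10 or more reads, and Benjamini-Hochberg adjustment at 0.05. The deposited values are scaled signal, for which limma was planned, and it was kept as the main test once whole reads had been recovered. Alternatives on the recovered reads were edgeR's quasi-likelihood test and DESeq2. Ratios carry exact binomial intervals at 95% confidence, quotients of contrasts Wald intervals. Named tiles were the highest sites of each window, those with the most unequal ratio among site tiles with at least 50 reads, and all called ones. Genes and promoters came from RefSeq GRCh38.p14, first listed promoter per gene. Both tests were checked on simulated data. Alternatives covered scaling, pseudocount, filters, tool, tile grid, site rule, windows, a replicate block and left-out libraries. Software was DESeq2 1.42.0, edgeR 4.0.16 and limma 3.58.1 in R 4.3.3, and matplotlib 3.10.9, scipy 1.17.1, pandas 2.3.3 and numpy 2.4.6 in Python 3.11.15.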

Additional observations from a re-analysis of the deposited data

How the results depend on the processing

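No called difference changed direction. At a fold of at least 5, 1 and 2 member tiles were enriched for DPF2 and H3K14cr. With the chromosome mean alone they were 47 and 65 (9.75% and 13.5% of covered members, against 1.11% and 2.12% of all covered tiles). Leaving out a replicate gave 19 to 21 DPF2 tiles and 22 to 25 H3K14cr tiles. A call then needs 1 library alone, not both, which by itself allows more calls. Shares of all covered tiles were not counted at a fold of 5 or without a replicate. Those counts are therefore not read as a trait of the clusters. The site-to-gap contrasts of DPF2 and H3K14cr were 3.50 and 3.64 for sites above 1.5 times the window mean and 3.71 and 3.76 above 2 times. They were 3.85 and 3.67 with the replicates swapped, 3.76 and 3.82 with sites picked and read in all libraries, 3.97 and 4.25 without gap tiles next to a site, and 3.70 and 4.003 without the longest window. Alternatives chosen after seeing the data gave 2.80 and 2.97 with covered gap tiles only and 2.88 and 3.08 without the window with most empty tiles. With sites from DPF2 replicate 1 alone the H3K14cr contrast was 3.10 and the quotient 1.01; with sites from H3K14cr replicate 1 alone the quotient was 0.923 (0.858 to 0.993), which leaves out 1. Without 1 replicate, where sites are picked and read in the same libraries and contrasts are larger by that choice, the contrasts were 3.78 to 4.33 and 3.86 to 3.96 and the quotient 0.981 to 1.09. The quotient was 1.05 with the replicates swapped.

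Members higher in DPF2 and in H3K14cr by limma (1 and 1) numbered 0 to 1 and 0 to 4 without 1 library. The count in H3K14cr was 3 without DPF2 replicate 1, 4 without DPF2 replicate 2 and 0 without either H3K14cr library, where the lone library is assumed to vary like the others. Median-of-ratios factors gave 0 in H3K14cr (596 and 764 calls over all tiles, against 516 and 3032). A minimum of 5 reads gave 0 in DPF2, where 556 of 932071 tested tiles were called. A minimum of 20 reads gave 2 of 60 members in H3K14cr, where 5735 of 44380 tested tiles were called. The shifted grid gave 0 in H3K14cr (2974 of 255409 tested tiles). Enriched tiles only, chosen after seeing the data, gave 0 and 3 of 20 members, where 512 and 3838 of 12225 tested tiles were called. Member counts this small are not read against those over all tiles. The member counts without 1 library stand without those over all tiles, so their moves are not read as a trait of the clusters. DESeq2 gave 0 and 0, with no adjusted p for 159 of 177 members. At an unadjusted DESeq2 p under 0.05 stood 1 and 2 members, and 850 and 5149 of all 255612 tested tiles. A replicate block changed no call (1 and 1), and same-numbered libraries did not deviate together (correlation 0.001 over tested tiles, 0.098 over members). edgeR gave 1 and 1. The cause of these moves was not tested. All 140 recomputed ratios of the 28 named tiles stayed within their intervals. The intervals of site tile ratios with median-of-ratios factors were added after seeing the data. Depth limits single tiles: the median site tile with 50 reads or more held 77 reads, and the medians of the lower and upper bounds of the ratio were 0.563 and 1.37.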
